A study of Homo sapiens with 6 samples.

Results

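The DNA replication fork and origin genes are 51 genes that license replication origins, unwind DNA, copy both strands, protect the moving fork and copy chromatin marks. They were taken by gene symbol from a table of 31768 genes, and all 51 were in it. RNA came from HMC3, an immortalized human microglial cell line, cultured as 3 independent irradiated cultures (15 Gy of a 6 MV X-ray beam at 3 Gy/min) and 3 independent control cultures (0 Gy). All 6 cultures were collected at 24 h, no allele or drug was added to either group, and the comparison asks how expression and isoform usage differed after irradiation. PCR-amplified cDNA was sequenced as long reads, and the values used are whole-number counts per transcript, summed per gene. The counts per transcript were made by the authors on GRCh38.

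An origin is marked by the origin recognition complex (ORC), onto which CDC6 and CDT1 load the MCM helicase in G1 phase, while geminin (GMNN) blocks CDT1 later in the cycle. CDC45 and GINS then join MCM to form the active helicase, DNA polymerase alpha-primase lays the primer, and polymerases epsilon and delta extend the strands on the PCNA clamp that replication factor C loads. RPA coats exposed DNA, FEN1 and LIG1 finish lagging-strand fragments, TIMELESS, TIPIN and CLSPN hold the fork together, and UHRF1, DNMT1 and CAF-1 (CHAF1A and CHAF1B) restore methylation and nucleosomes. Many of these genes are known targets of E2F factors, which switch on genes at the start of S phase.

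The promoters of 5 members are shown to compare E2F-type strings between members called lower, members called higher and a member near no change. Each is the 120 bases before a transcription start from RefSeq (GRCh38.p14), with any match to TTTCCCGC, TTTGGCGC, TTTCGCGC or TTTGCCGC on either strand in capitals. UHRF1 has 3 listed starts and PCNA 2, and for these genes the first start with a match in the 120 bases was shown.
GINS2, chr16:85688955-85689074, minus strand: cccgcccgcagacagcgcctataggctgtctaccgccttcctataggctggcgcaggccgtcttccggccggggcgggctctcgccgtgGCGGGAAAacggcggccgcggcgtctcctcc
PRIM1, chr12:56752324-56752443, minus strand: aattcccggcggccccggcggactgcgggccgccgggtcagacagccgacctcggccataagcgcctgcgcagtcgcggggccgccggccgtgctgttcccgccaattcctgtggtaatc
CDT1, chr16:88803669-88803788, plus strand: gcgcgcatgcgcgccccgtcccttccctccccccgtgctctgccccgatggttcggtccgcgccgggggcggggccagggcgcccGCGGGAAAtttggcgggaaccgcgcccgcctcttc
UHRF1, chr19:4909381-4909500, plus strand: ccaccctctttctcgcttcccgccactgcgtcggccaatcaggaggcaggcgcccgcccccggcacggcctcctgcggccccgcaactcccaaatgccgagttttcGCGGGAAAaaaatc
PCNA, chr20:5126623-5126742, minus strand: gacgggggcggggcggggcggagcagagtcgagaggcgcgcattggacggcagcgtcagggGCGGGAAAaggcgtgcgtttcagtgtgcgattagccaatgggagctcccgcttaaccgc
GINS2, the member with the most negative log2 fold change, and UHRF1 and CDT1, both higher after irradiation, carried the same GCGGGAAA string on the printed strand, as did PCNA, whose level hardly differed. PRIM1, the most strongly lower of the members among those that passed the filter, had no match to these exact strings in its 250 bases. Its printed bases do hold ttcccgc, which is TTTCCCGC without the first letter. Unmarked copies of ttcccgc also lie in the printed bases of UHRF1 and, on the other strand, of CDT1. The search therefore does not show that a promoter without a match lacks an E2F-type site. Over the 45 members with a promoter entry (MCM4, MCM5, GINS4, POLD3, RPA2 and RPA3 have none), 16 or 35.6% had a match within 250 bases before a start, against 928 of 27305 genes or 3.4%. A promoter was counted once however many matches it held, matches on opposite strands may overlap, and a gene with several starts counted if any had a match. Matches were found in 5 of the 12 lower members with an entry, GINS2 and MCM6 included, in 2 of the 3 higher members, CDT1 included, and in 9 of the 30 members without a call.

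Library totals ran between 6292049 and 6909420 counts in irradiated cultures and between 4870897 and 9082409 in controls, and the members took 14878 to 17057 counts per irradiated library and 10452 to 19288 per control library. As a share of kept counts, without TMM factors, this was 0.2642, 0.2429 and 0.2575% in irradiated libraries 1, 2 and 3. In controls 1, 2 and 3 it was 0.2225, 0.2077 and 0.2211%, lower than in every irradiated library. CPM are counts relative to library totals scaled with TMM factors, which were 1.24, 1.09 and 1.18 in irradiated libraries 1, 2 and 3 and 0.849, 0.793 and 0.928 in control libraries 1, 2 and 3. Across genes, control 3 was closer to the irradiated libraries (Pearson's r 0.9535 to 0.9614) than controls 1 and 2 were (0.924 to 0.9401). With its own group, control 3 stood at 0.9569 (control 1) and 0.9638 (control 2), about as close as to the irradiated libraries. Microglial identity rests on the labels: of 14 microglial markers 7 were in the table, with CD68 and TREM2 the ones above a mean of 1 CPM, while 8 of 12 fibroblast and pericyte markers were above it. The microglial list summed to 33 to 37.4 CPM in irradiated cultures and 24.4 to 37.2 CPM in controls, the fibroblast and pericyte list to 346 to 423 CPM and 359 to 394 CPM.

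On the TMM scale the replication genes leaned lower after irradiation, without falling as a block. Of the 47 members that passed the filter, 14 fell and 2 rose at an adjusted p under 0.05 (edgeR quasi-likelihood test, adjusted over all 11118 genes), and 31 had no call. The lower members were PRIM1, TIPIN, ORC5, POLE3, RFC5, GMNN, FEN1, RPA3, RPA2, GINS4, CDC45, ORC3, MCM5 and POLD2, and the higher ones were UHRF1 and POLD1. That is 29.8% of the members lower against 14.1% of all genes tested, and 4.26% higher against 11.6%. The median log2 fold change was -0.19 over the 47 members and 0.08 over all genes, and 33 members had a negative value. With library totals in place of TMM, 17 of the 47 had a negative value. The share of all genes with a negative value is not given here. In bulk RNA, fewer cells carrying a transcript and less of it per cell cannot be told apart.

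**Figure D1:**
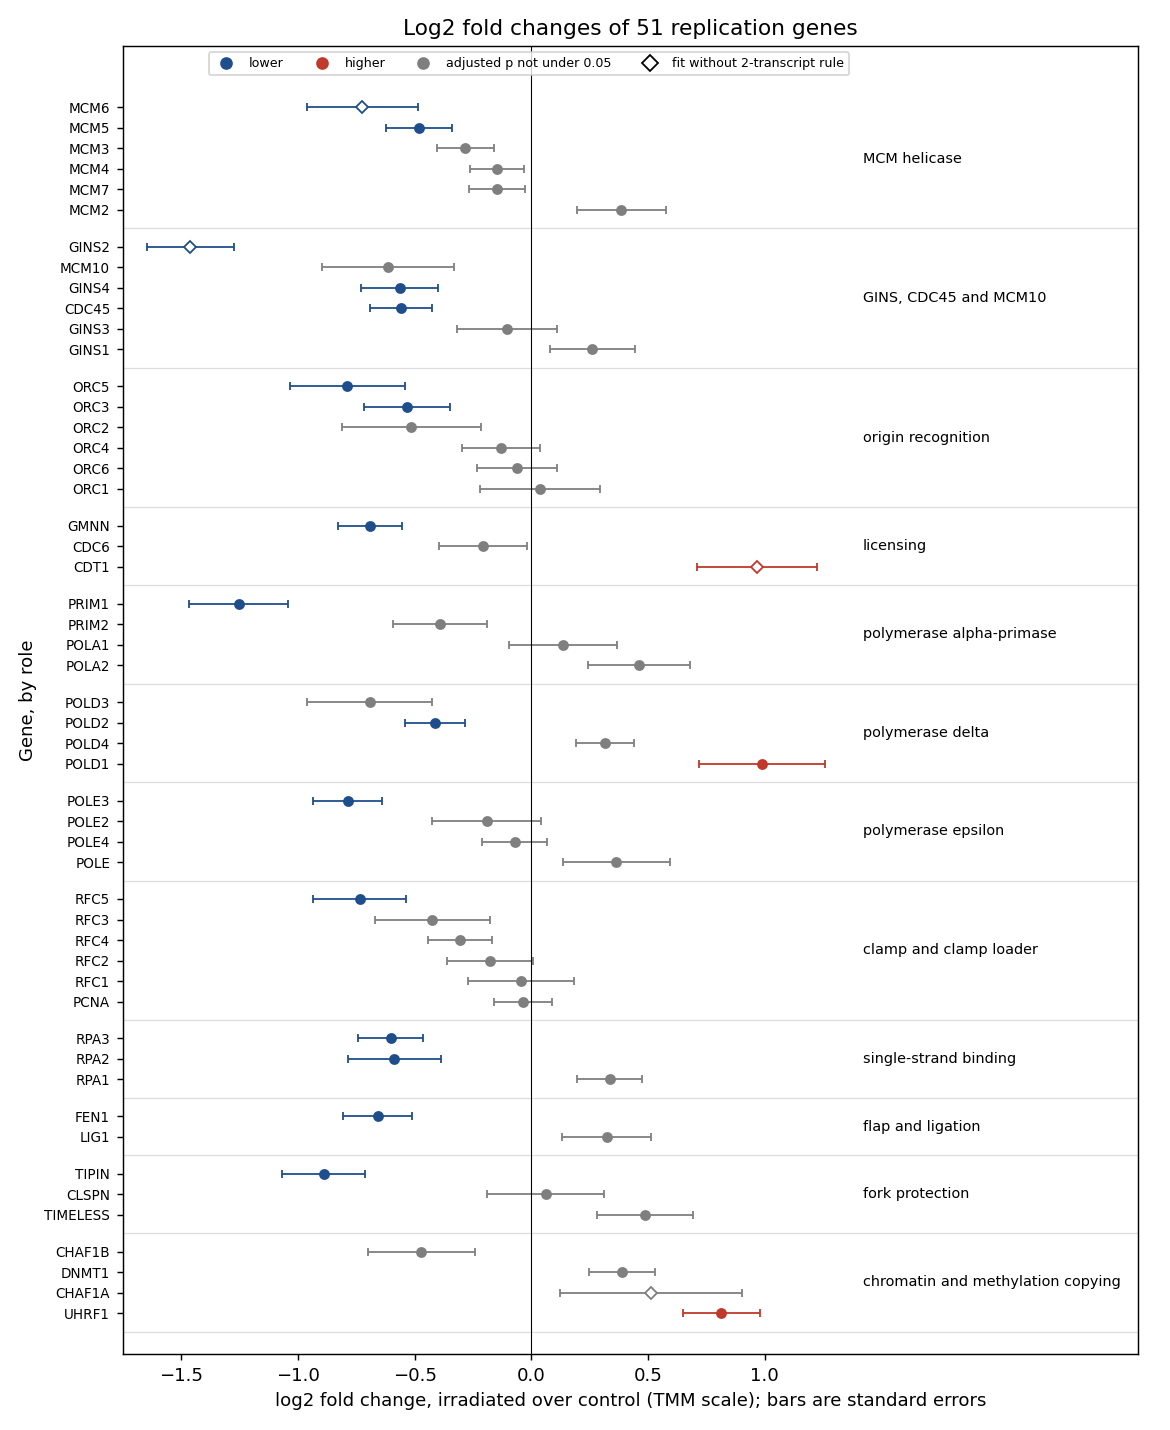
Log2 fold change of irradiated over control cultures on the TMM scale (horizontal axis, bars are standard errors) for each of the 51 genes, grouped by role, with 3 cultures per group. In 11 of the 12 roles at least 1 gene that passed the filter was lower (blue), while UHRF1 and POLD1, and CDT1 in the fit without the rule on 2 transcripts, were higher (red). With library totals in place of TMM, PRIM1 is the 1 gene past the filter that remains lower.

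Fold changes were mostly modest. Of the 47 members that passed the filter, PRIM1 was the 1 called past a log2 fold change of -1, as 1.7% of all genes were, and 0 were called past 1, as 4% of all genes were. Of the 4 outside the filter, described further on, GINS2 was also past -1, in a fit where 1.97% of genes were called past -1 and 4.05% past 1. The groups did not overlap in 18 members that were lower (38.3%, against 21.3% of all genes) and in 7 that were higher (14.9%, against 21.5%). At an unadjusted p under 0.05, 18 members were lower (19.3% of all genes) and 6 higher (19.6%). DESeq2 kept all 16 calls and added none (14.9% of all genes lower and 9.77% higher). Leaving out irradiated 1 gave 7 lower members (8.79% of all genes) and 1 higher (6.24%). Leaving out control 3 gave 16 lower (17.3%) and 3 higher (15.6%), so the counts over all genes moved the same way as those of the members. The 8 calls of PRIM1, TIPIN, POLE3, GMNN, FEN1, RPA3, CDC45 and UHRF1 held without any 1 library. Control 3 was the lowest control in 13 of the 14 lower members (92.9%), and so it was in 80.4% of all lower genes.

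The scale decided how many members counted as lower. With library totals alone all genes had a median log2 fold change of 0.528, a shift of 0.448 from the TMM scale, 1 member was lower (3.2% of all genes) and 13 were higher (32.8%), and PRIM1, UHRF1 and POLD1 were the 3 of 16 calls that remained. The members' median minus that of all genes was -0.26 with library totals and -0.27 on the TMM scale. A change of scale moves all genes by about the same amount. This difference could therefore hardly change and is no check on the members' lean. Values that follow are on the TMM scale.

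**Figure D2:**
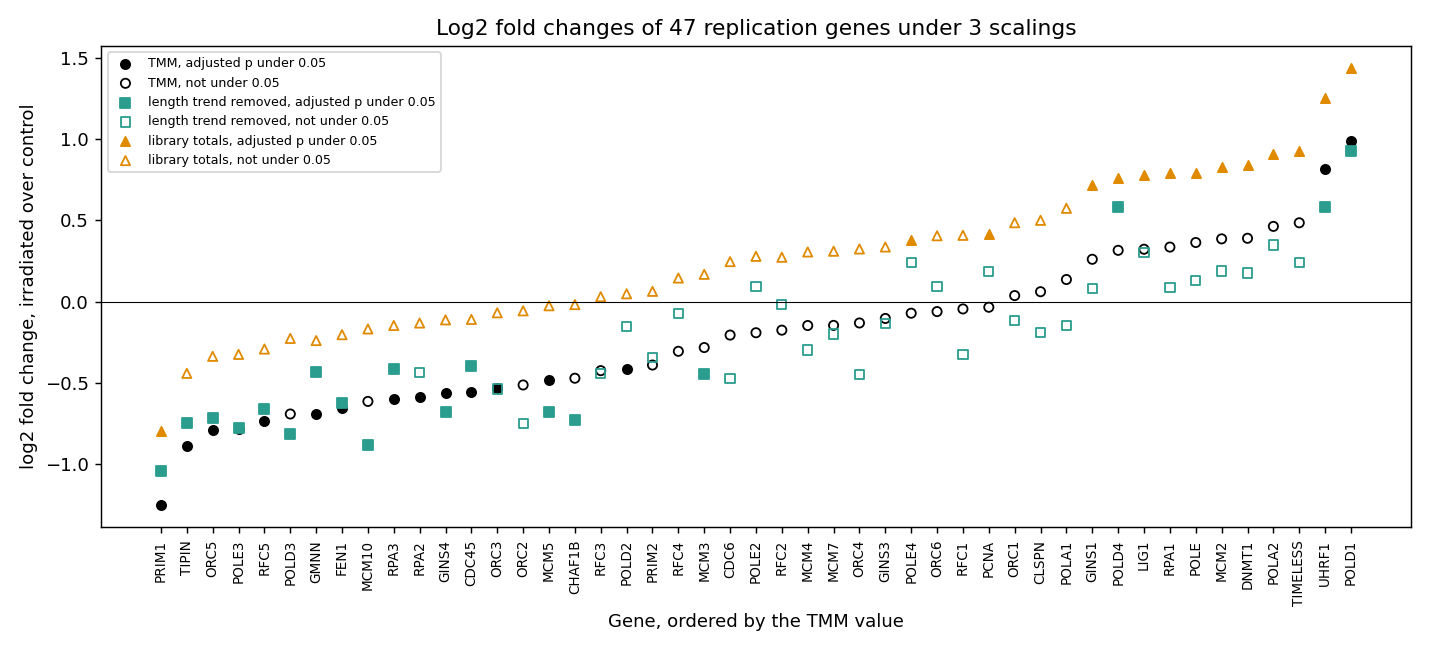
Log2 fold change of irradiated over control cultures (vertical axis) for the 47 genes that passed the filter, ordered by the TMM value, under TMM (circles), with the length trend removed (squares) and with library totals alone (triangles). Filled symbols have an adjusted p under 0.05, and under library totals every gene sits higher than under TMM, with PRIM1 the 1 gene still lower.

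**Figure D3:**
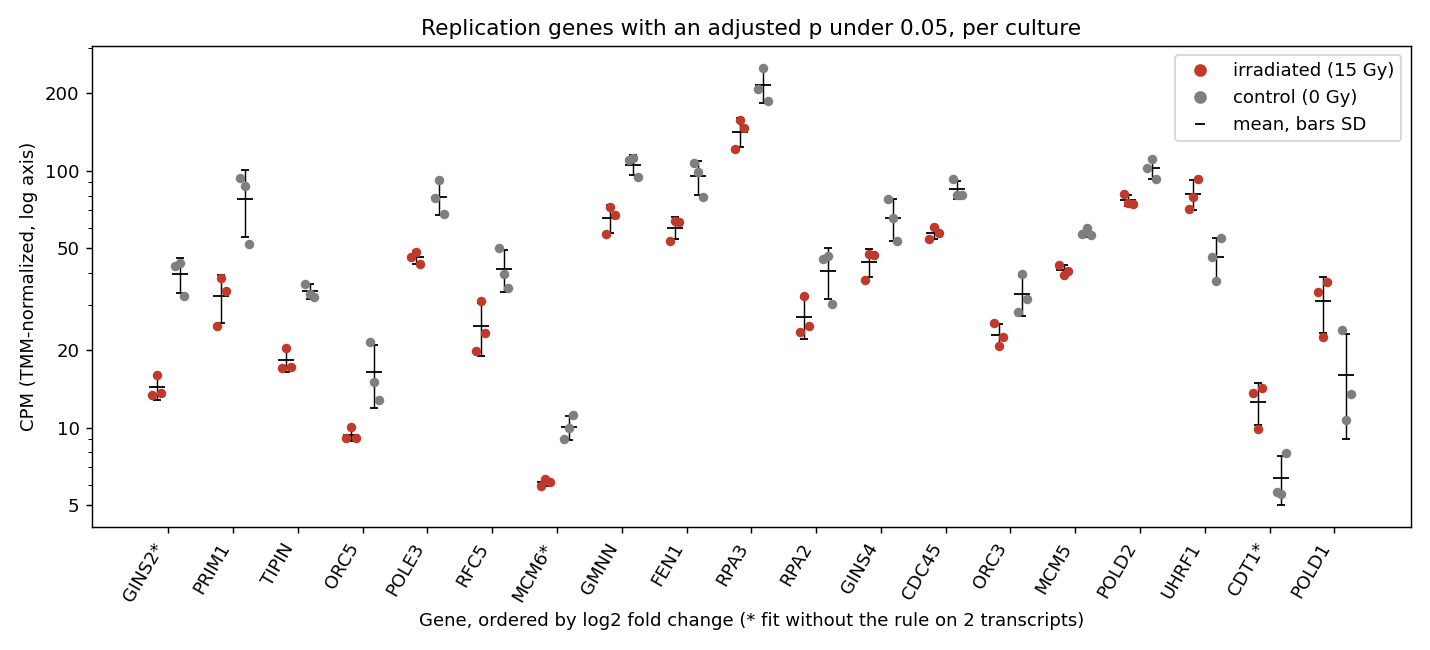
Normalized level of each called gene per culture (vertical axis, CPM on a log scale), irradiated cultures in red to the left of controls in grey, with the mean and SD of 3 cultures, ordered by log2 fold change. The irradiated points lie under all control points in every lower gene other than RPA2, and above them in UHRF1 and CDT1 but not in POLD1.

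The 4 members MCM6, CDT1, CHAF1A and GINS2 failed the rule of at least 2 kept transcripts per gene. They were read from a fit of 12865 genes without that rule, in which 13.6% of genes were lower and 10.5% higher, and their calls are not among the 16.

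At the origin, 2 of the 6 ORC genes fell and none rose. ORC5 (chromosome 7, 104126341 to 104208047, minus strand), a subunit of the ATPase core of ORC, had 9.10, 10.02 and 9.07 CPM in irradiated cultures 1, 2 and 3, against 21.6, 14.99 and 12.8 CPM in controls 1, 2 and 3. It fell without overlap (log2 fold change -0.79, SE 0.24, adjusted p = 0.027), and lost its call without irradiated 1 or 3 or control 1 or 2 (adjusted p between 0.0516 and 0.124). ORC3 (chromosome 6, 87590067 to 87667453, plus strand), which binds ORC2 within the complex, had 25.4, 20.8 and 22.6 CPM after irradiation, against 28.1, 39.5 and 31.8 CPM in controls. It fell as well (log2 fold change -0.53, SE 0.19, adjusted p = 0.0441), with its call lost without irradiated 1, 2 or 3 or control 2 (0.0679 to 0.208). The other 4 were not called: ORC2 stood at a log2 fold change of -0.51, ORC4 at -0.13, ORC6 at -0.06 and ORC1, the subunit that comes and goes with the cell cycle, at 0.04.

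The licensing genes parted. Geminin (chromosome 6, 24774931 to 24786099, plus strand), the inhibitor of CDT1, had 56.6, 72.4 and 67.1 CPM in irradiated cultures 1, 2 and 3, against 109.9, 112 and 94.8 CPM in controls 1, 2 and 3. It fell in a gap that no culture crossed (log2 fold change -0.69, SE 0.14, adjusted p = 0.00235). CDT1 (chromosome 16, 88803213 to 88809258, plus strand), the loading factor that geminin holds back, had 13.6, 9.89 and 14.2 CPM after irradiation, against 5.61, 5.51 and 7.95 CPM in controls. CDT1 rose on few reads, 69 to 116 counts per irradiated library and 23 to 67 per control (log2 fold change 0.97, SE 0.26, adjusted p = 0.0161), and lost its call without irradiated 1 or 3 or control 2 (0.0631 to 0.072). CDC6, the other loading factor, had a log2 fold change of -0.21 and overlapping groups (adjusted p = 0.448).

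Among the 6 MCM subunits of the helicase ring, MCM5 was the 1 called among those that passed the filter. MCM5 (chromosome 22, 35400063 to 35425430, plus strand) had 43.1, 39.3 and 40.8 CPM in irradiated cultures 1, 2 and 3, against 56.4, 59.7 and 55.98 CPM in controls 1, 2 and 3. It fell (log2 fold change -0.48, SE 0.14, adjusted p = 0.0201), with the call lost without irradiated 1, 2 or 3 or control 2 (0.0513 to 0.0756). MCM6 (chromosome 2, 135839626 to 135876426, minus strand) had 5.90, 6.31 and 6.14 CPM after irradiation, against 9.03, 9.98 and 11.2 CPM in controls, on 37 to 94 counts per library. In the fit without the rule on transcripts it fell (log2 fold change -0.72, SE 0.24, adjusted p = 0.0409), a call that DESeq2 (adjusted p = 0.0559) and each left-out library (0.0509 to 0.121) removed. MCM3 (-0.28), MCM4 (-0.15) and MCM7 (-0.15) had negative log2 fold changes without a call, and MCM2 a positive one (0.39, adjusted p = 0.148).

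The factors that turn the ring into an active helicase held the most negative value of the 51 genes. GINS2 (chromosome 16, 85676198 to 85690073, minus strand) had 13.3, 16.1 and 13.6 CPM in irradiated cultures 1, 2 and 3, against 42.7, 43.6 and 32.5 CPM in controls 1, 2 and 3. It fell to 0.363 of the control level (log2 fold change -1.46, SE 0.19, adjusted p = 0.00118), carried by the 1 transcript the table lists for it, and stayed called without any 1 library (0.000234 to 0.0108) and with library totals (log2 fold change -0.997). CDC45 (chromosome 22, 19479459 to 19520612, plus strand) had 54.05, 60.4 and 57.3 CPM after irradiation, against 92.6, 80.6 and 80.3 CPM in controls.

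CDC45 fell without overlap (log2 fold change -0.56, SE 0.13, adjusted p = 0.00664). GINS4 (chromosome 8, 41529206 to 41545046, plus strand), another GINS subunit, had 37.6, 47.4 and 46.9 CPM in irradiated cultures 1, 2 and 3, against 77.8, 65.2 and 53.3 CPM in controls 1, 2 and 3. It fell too (log2 fold change -0.56, SE 0.17, adjusted p = 0.0203), but not without irradiated 1 or control 1 or 2 (0.0546 to 0.0982). The other GINS subunits were not called, with log2 fold changes of -0.10 for GINS3 and 0.26 for GINS1. MCM10, which helps the helicase start, stood at -0.61 with an adjusted p of 0.118 on 39 to 71 counts per library.

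Within each replicative polymerase the subunits did not move together. In polymerase alpha-primase, PRIM1 (chromosome 12, 56731596 to 56752373, minus strand), the catalytic subunit that makes the RNA primer, had 24.9, 38.1 and 34.1 CPM in irradiated cultures 1, 2 and 3, against 93.6, 87.5 and 51.9 CPM in controls 1, 2 and 3. All irradiated values lay under the lowest control, which was control 3. PRIM1 fell to 0.419 of the control level (log2 fold change -1.25, SE 0.21, adjusted p = 0.00102) and stayed called without any 1 library (7.35e-05 to 0.00832). The regulatory primase subunit PRIM2 had a log2 fold change of -0.39, the catalytic polymerase subunit POLA1 0.14 and the accessory subunit POLA2 0.46, none of them called. PRIM1 shares exonic bases with NACA on the same strand, and NACA, which encodes a chaperone of new proteins and held 119697 counts over the 6 libraries, was itself lower (-0.78, adjusted p = 0.00116). Its part in the PRIM1 value was not tested.

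Polymerase delta held calls in both directions. POLD1 (chromosome 19, 50384204 to 50418016, plus strand), its catalytic subunit, had 33.6, 22.4 and 36.9 CPM in irradiated cultures 1, 2 and 3, against 24.1, 10.7 and 13.5 CPM in controls 1, 2 and 3. It rose (log2 fold change 0.99, SE 0.27, adjusted p = 0.0142), though control 1 was above irradiated 2, and the call was lost without irradiated 1 or 3 or control 2 (0.0557 to 0.0739). POLD2 (chromosome 7, 44114681 to 44124358, minus strand), the subunit that joins the catalytic one to the rest, had 81.3, 74.8 and 73.9 CPM after irradiation, against 103, 111 and 92.4 CPM in controls. POLD2 fell without overlap (log2 fold change -0.41, SE 0.13, adjusted p = 0.0271), with a positive value of 0.048 under library totals, and stayed called in 1 of the 6 fits that left out a library, that without control 3 (0.0541 to 0.115 in the others). POLD3 (-0.69, adjusted p = 0.0683) and POLD4 (0.32, adjusted p = 0.0757) had non-overlapping groups in opposite directions and no call.

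In polymerase epsilon, POLE3 (chromosome 9, 113407235 to 113410672, minus strand) was the 1 subunit that fell. This small histone-fold subunit had 46.03, 48.5 and 43.5 CPM in irradiated cultures 1, 2 and 3, against 78.02, 92.1 and 67.8 CPM in controls 1, 2 and 3. The groups were well apart (log2 fold change -0.79, SE 0.15, adjusted p = 0.00178). Its histone-fold partner POLE4 had a log2 fold change of -0.07, the accessory subunit POLE2 -0.19 and the catalytic subunit POLE 0.36, all with overlapping groups and no call.

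PCNA, the sliding clamp, was level: it averaged 135.5 ± 14.3 CPM in irradiated cultures and 139 ± 11.2 CPM in controls (SD, n = 3 each), with a log2 fold change of -0.04 and an adjusted p of 0.867. With library totals it was higher (0.42, adjusted p = 0.00764). RFC5 (chromosome 12, 118013588 to 118033130, plus strand), a small subunit of the loader that opens the clamp, had 19.9, 31.1 and 23.3 CPM in irradiated cultures 1, 2 and 3, against 49.9, 39.6 and 34.9 CPM in controls 1, 2 and 3. It fell (log2 fold change -0.74, SE 0.20, adjusted p = 0.0136), and lost its call without irradiated 1 or 3 or control 1 (0.0549 to 0.0714). The other loader subunits all had negative values without a call, from -0.43 for RFC3 and -0.31 for RFC4 to -0.18 for RFC2 and -0.05 for RFC1, the large subunit.

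RPA is a trimer, and its smaller subunits fell while its largest had no call. RPA3 (chromosome 7, 7636518 to 7718607, minus strand), the smallest subunit, had 121, 158 and 147 CPM in irradiated cultures 1, 2 and 3, against 209, 251 and 187 CPM in controls 1, 2 and 3, and fell (log2 fold change -0.60, SE 0.14, adjusted p = 0.00537). RPA2 (chromosome 1, 27891524 to 27914746, minus strand), the subunit phosphorylated after replication stress, had 23.6, 32.6 and 24.8 CPM after irradiation, against 45.4, 46.5 and 30.3 CPM in controls. RPA2 fell by the test (log2 fold change -0.59, SE 0.20, adjusted p = 0.0404) although irradiated 2 lay above control 3, and lost the call without irradiated 1 or 3 or control 1 or 2 (0.108 to 0.159). RPA1, the main DNA-binding subunit, averaged 57.7 ± 3.46 CPM in irradiated cultures and 45.7 ± 1.85 CPM in controls (SD, n = 3 each), without overlap and without a call (log2 fold change 0.34, adjusted p = 0.0889).

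Of the lagging-strand finishers, FEN1 (chromosome 11, 61792637 to 61797244, plus strand), the nuclease that trims flaps, had 53.1, 63.9 and 63.01 CPM in irradiated cultures 1, 2 and 3, against 107, 98.8 and 79.1 CPM in controls 1, 2 and 3. FEN1 fell (log2 fold change -0.66, SE 0.15, adjusted p = 0.00448), and DNA ligase LIG1 had a log2 fold change of 0.32 with no call. FEN1 shares exonic bases with TMEM258 on the opposite strand, a gene of 59038 counts that was also lower (-0.55, adjusted p = 0.00844). The sources used here do not say whether the counting used strand, and FEN1 also shares exonic bases with FADS2 on the same strand, a gene of 972 counts that was not called (0.58, adjusted p = 0.0782). The part of either gene in the FEN1 value was not tested. In all, 20 of the 51 members share exonic bases with another gene of the table.

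At the fork, TIPIN (chromosome 15, 66336206 to 66386746, minus strand), the binding partner of TIMELESS, had 17.1, 20.5 and 17.3 CPM in irradiated cultures 1, 2 and 3, against 36.4, 33.2 and 32.2 CPM in controls 1, 2 and 3. TIPIN fell to 0.54 of the control level (log2 fold change -0.89, SE 0.18, adjusted p = 0.00244), with the highest irradiated value well under the lowest control. TIMELESS itself had 19, 22.4 and 24.7 CPM after irradiation, against 13.3, 15.4 and 18.04 CPM in controls, higher in every irradiated culture but not called (log2 fold change 0.48, adjusted p = 0.0927). CLSPN, the adaptor that passes the checkpoint signal to its kinase, had a log2 fold change of 0.06 and overlapping groups.

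The genes that copy methylation onto new DNA had positive values. UHRF1 (chromosome 19, 4903080 to 4962154, plus strand), which reads hemimethylated DNA and recruits DNMT1, had 71.2, 79.1 and 93.05 CPM in irradiated cultures 1, 2 and 3, against 46.2, 37.2 and 54.9 CPM in controls 1, 2 and 3. UHRF1 rose 1.76-fold (log2 fold change 0.81, SE 0.16, adjusted p = 0.0025) and stayed called without any 1 library (0.000671 to 0.0227). DNMT1, the maintenance methyltransferase, had 85.1, 82.1 and 77.2 CPM after irradiation, against 72.2, 54.2 and 60.9 CPM in controls, without overlap and just over the threshold (log2 fold change 0.39, adjusted p = 0.052). The nucleosome assembly genes were not called, with log2 fold changes of -0.47 for CHAF1B and, in the fit without the rule on transcripts, 0.51 for CHAF1A.

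Per kilobase, PCNA had the highest irradiated value of the 47 members that passed the filter (100.3 CPM per kb, against 102.8 in controls). RPA3 (95.1 against 144.5) and POLD4 (92.1 against 74.1) came next. Without division by length, MCM7 (189.8 CPM), RPA3 (141.9 CPM) and PCNA (135.5 CPM) led in irradiated cultures, and POLD4 had 105.8 CPM. Whether these long-read counts rise with transcript length was not tested, so the values per kb do not rank the genes by abundance. ORC2 had the lowest value per kb of these members (1.38 against 1.95 CPM per kb), next to MCM10 (1.54 against 2.39). Outside the filter, CHAF1A had 1.48 CPM per kb in irradiated cultures, between those of ORC2 and MCM10, and 1.03 CPM per kb in controls, under both. PCNA and RPA3 stood in the reverse order in controls.

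Transcript length ran along with the direction. The lower members had a median length, weighted by counts, of 1797 bases (1183 to 3457), and 12 of the 14 lay under 2500 bases, while the higher members POLD1 and UHRF1 had 2536 and 4008 bases. The 24 members under 2500 bases had a median log2 fold change of -0.42, and the 23 longer ones 0.04. All genes showed the same lean: Spearman's rho between length and log2 fold change was 0.383 over the 47 members and 0.366 over 10668 genes with a length, given as a description across genes that share libraries and are not independent. Under 1000 bases all genes had a median of -0.44 and the 1 member -0.07. At 1000 to 1500 bases the medians were close, -0.32 over all genes and -0.36 over 8 members. Genes of 1500 to 2000 bases had a median of -0.13 and the 7 members among them -0.59. At 2000 to 2500 bases the medians were -0.0001 and -0.41 (8 members), and at 2500 to 3000 bases 0.11 and -0.05 (4 members). At 3000 to 4000 bases they were 0.23 and -0.06 (8 members). Genes over 4000 bases had a median of 0.33, and the 11 members among them 0.06.

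**Figure D4:**
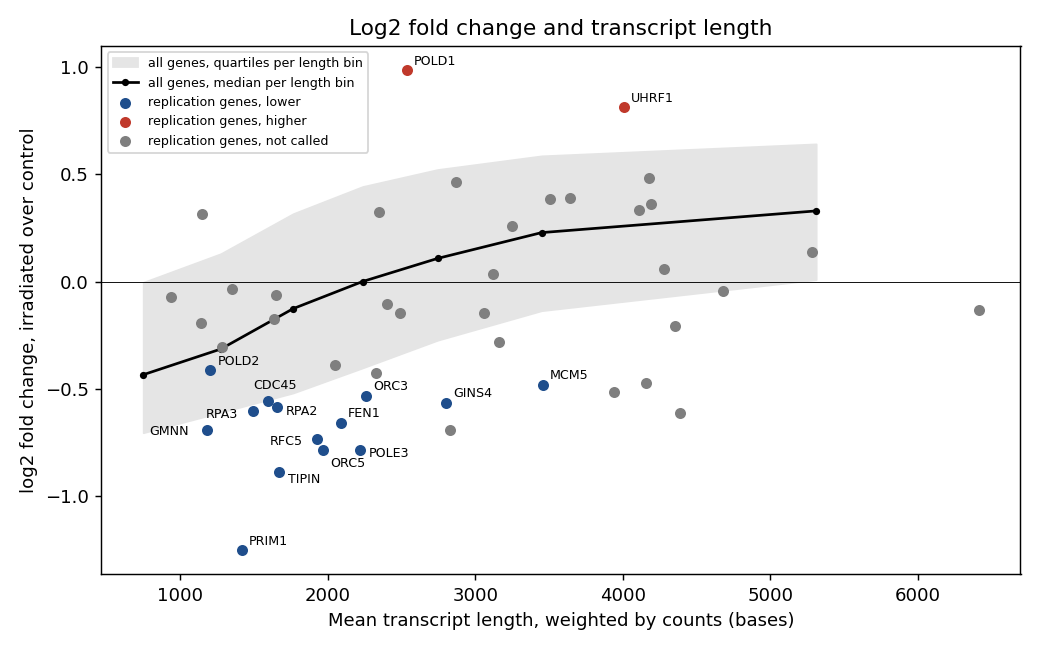
Log2 fold change of irradiated over control cultures (vertical axis, TMM scale) against mean transcript length in bases, for the 47 genes that passed the filter (points) and for all genes as the median and quartiles per length bin. The median of all genes climbs from -0.44 under 1000 bases to 0.33 over 4000 bases, and the 14 lower genes all lie under that line.

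With each library's trend of counts on length removed, 13 of the 16 calls remained and POLD2, RPA2 and ORC3 did not. MCM10, POLD3, MCM3 and CHAF1B were then lower and POLD4 higher, which made 15 lower members (11.6% of all genes) and 3 higher (8.71%). The members' median minus that of all genes was -0.30 with the trend removed, against -0.27 before.

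Transcripts were tested one by one. Of 496 listed for the members, 354 were kept, and 24 in 13 genes fell while 6 in 3 genes rose at an adjusted p under 0.05 with a log2 fold change beyond 1 in size (edgeR). That is 6.78% lower against 4.33% of all 74843 transcripts, and 1.69% higher against 3.36%. Leaving out control 2 gave 9 lower member transcripts (2.31% of all transcripts) and 2 higher (1.81%). Leaving out control 3 gave 37 lower (6.56%) and 17 higher (6.31%). DESeq2, which gave an adjusted p to 38567 transcripts, called 14 lower (5.66% of those) and 1 higher (2.03%). Transcript structures are those of GENCODE release 29, which gives lengths for 66.7% of the members' kept transcripts and 85.4% of their counts.

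The called transcripts with a mean of at least 2 CPM numbered 17, in 9 genes. PRIM1 held 4, all lower and nearly in step: ENST00000706566 (log2 fold change -1.32), ENST00000672280 (log2 fold change -1.34), ENST00000552590 (log2 fold change -1.34), which is annotated as subject to nonsense-mediated decay, and ENST00000338193 (log2 fold change -1.18). Usage within PRIM1 moved by about 1 point or less in the 3 that each held at least 20% of its counts. The main TIPIN transcript, ENST00000261881, averaged 14.5 ± 1.39 CPM in irradiated cultures and 29.9 ± 2.56 CPM in controls (log2 fold change -1.04). In CDC45, the 20-exon transcript, ENST00000437685, averaged 11.9 ± 1.31 CPM in irradiated cultures and 24.2 ± 3.25 CPM in controls (log2 fold change -1.02). The main MCM5 transcript, ENST00000216122, averaged 19.2 ± 1.24 CPM in irradiated cultures and 38.8 ± 6.72 CPM in controls (log2 fold change -1.01). All of these 3 were called lower.

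POLD2 is split over 42 kept transcripts, and 4 of at least 2 CPM were lower: ENST00000698967 (log2 fold change -1.26), ENST00000698966 (log2 fold change -1.27), ENST00000698962 (log2 fold change -1.33) and ENST00000698963 (log2 fold change -1.87). In ORC3, ENST00000681069 (log2 fold change -1.03) was lower. POLD1 rose in the coding transcript ENST00000599857 (log2 fold change 1.13), the retained-intron transcript ENST00000597963 (log2 fold change 1.17) and the decay-annotated transcript ENST00000600859 (log2 fold change 1.29), so its higher gene total was shared among transcript classes. Short transcripts rose in RPA2 (ENST00000419958 (log2 fold change 1.15), 554 bases), whose gene total fell, and in DNMT1 (ENST00000591798 (log2 fold change 1.03), 521 bases, annotated as a processed transcript). Reads of near-identical transcripts are divided by the authors' quantification, so values of such transcripts are less certain than those of their gene.

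Isoform usage, the share of a gene's counts that a transcript holds, was gained in 4 transcripts of 3 members (0.269% of all transcripts) and reduced in 0 (0.135%), at an adjusted p under 0.05 and a change of at least 10 points (edgeR diffSpliceDGE). At an unadjusted p under 0.05, edgeR gave 5 gained member isoforms (0.72% of all transcripts) and 7 reduced (0.719%) of at least 10 points. At its adjusted p, limma's diffSplice called 4 gained (0.442%) and 9 reduced (0.774%). Of the 4 that edgeR called gained, limma called those of FEN1 and RPA1 and ENST00000567000 of ORC6, and it also called ENST00000567143 of GINS3 (12.9 points, adjusted p = 0.04999 by limma and 0.1185 by edgeR). Without control 3, edgeR called 10 gained (0.58%) and 3 reduced (0.45%). The isoforms that limma called reduced included the main ones of FEN1 (adjusted p = 0.00042, against 0.771 by edgeR), RPA1 and ORC6. Shares within a gene add up to the whole, so 0 reduced calls by edgeR do not mean that no share fell. FEN1 kept 2 transcripts, and the gain of 1 and the loss of the other are the same change.

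FEN1 showed the plainest shift. Its transcript ENST00000535307 (2 exons, 768 bases, chromosome 11, 61795940 to 61797232, annotated as coding) held 21.9, 16.2 and 25.1% in irradiated cultures 1, 2 and 3, against 7.03, 4.49 and 11.2% in controls 1, 2 and 3. The groups did not overlap, the gain was 13.5 points (adjusted p = 0.000143), and it stayed called without any 1 library (2.15e-05 to 0.00886). The full-length transcript ENST00000305885 (2296 bases) held the rest, 78.9 ± 4.56% in irradiated cultures and 92.4 ± 3.42% in controls (SD, n = 3 each). In CPM the shorter one averaged 12.4 ± 2.80 in irradiated cultures and 7.05 ± 2.21 in controls, while the gene as a whole fell.

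ORC6, the smallest ORC subunit, had a level gene total and a changed make-up. Its retained-intron transcript ENST00000567000 (3 exons, 1560 bases, chromosome 16, 46695109 to 46698382) held 21.1, 16.6 and 22.9% in irradiated cultures 1, 2 and 3, against 10.1, 7.38 and 12.4% in controls 1, 2 and 3. The gain was 10.3 points (adjusted p = 0.0145), and it stayed called without irradiated 2 and without control 3, but not without irradiated 1 or 3 or control 1 or 2 (0.0804 to 0.179). The coding transcript ENST00000566860 held 21.5, 19.4 and 24.2% in irradiated cultures 1, 2 and 3, against 10.1, 10.7 and 13.1% in controls 1, 2 and 3. It gained 10.4 points (adjusted p = 0.0309), a call lost without the same 4 libraries (0.125 to 0.201), with limma (0.0793) and with library totals (0.0771). The main coding transcript ENST00000219097 held 44.8 ± 4.93% in irradiated cultures and 69.1 ± 7.76% in controls (SD, n = 3 each), a drop of 24.3 points with an adjusted p of 0.0514.

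In RPA1, the transcript ENST00000574049, which has 8 exons against 17 in the main one, held 44.03, 39.7 and 44.2% in irradiated cultures 1, 2 and 3, against 25.3, 25.2 and 33.5% in controls 1, 2 and 3. It gained 14.6 points (adjusted p = 0.0405), a call that stood in the fit without control 3 but not without any other library (0.0653 to 0.256) nor with library totals (0.113). Other main isoforms with lower shares by limma but not by edgeR were those of RFC4 (-15.3 points, limma adjusted p = 0.0154), MCM5 (-18.5 points, 0.00173), POLE4 (-16.9 points, 0.000953), RFC2 (-14.8 points, 0.0178), GINS3 (-16.7 points, 0.0322) and CDC6 (-10.2 points, 0.0207). MCM5 illustrates these: ENST00000216122 held 45.03, 52.9 and 45.1% in irradiated cultures 1, 2 and 3, against 67.6, 73.6 and 57.4% in controls 1, 2 and 3. Its retained-intron transcript ENST00000493076 held 25.2, 21.3 and 26.3% in irradiated cultures 1, 2 and 3, against 13.3, 10 and 19.9% in controls 1, 2 and 3, with an adjusted p of 0.0514 by edgeR. In each of the shares given per culture, control 3 was the control nearest to the irradiated cultures.

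**Figure D5:**
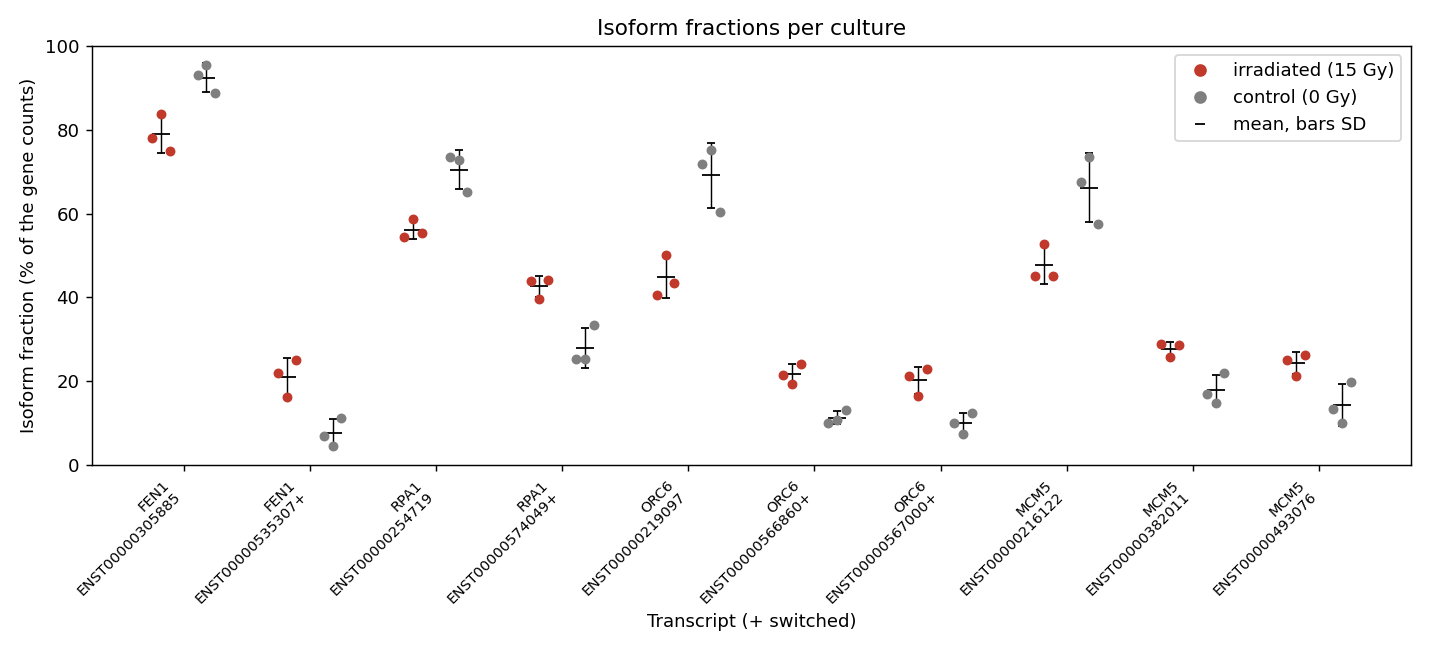
Isoform fraction in percent of the gene's counts (vertical axis) for transcripts of FEN1, RPA1, ORC6 and MCM5, irradiated cultures in red to the left of controls in grey, with the mean and SD of 3 cultures. The 4 transcripts marked + (gained by edgeR) sit higher in all irradiated cultures, and the main transcripts ENST00000305885, ENST00000254719, ENST00000219097 and ENST00000216122 sit lower.

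By class, coding transcripts held 68.3, 71.2 and 70.5% of the members' counts in irradiated cultures 1, 2 and 3, against 74.3, 74.6 and 72.3% in controls 1, 2 and 3. Retained-intron transcripts held 10.5, 9.13 and 10.1% after irradiation, against 7.21, 7.04 and 8.66% in controls. The difference of 2.26 points had an exact permutation p of 0.1 (two-sided), the smallest that 3 cultures against 3 allow. Over all kept transcripts the retained-intron share was 9.55 ± 0.18% in irradiated cultures and 8.66 ± 0.29% in controls (SD, n = 3 each), and the coding share was 64.4 ± 0.48% and 66.8 ± 0.66%. The members' shift thus had the direction of the whole library, and whether it was larger was not tested.

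Among 62 other replication genes (kinases, checkpoint factors, RNase H2, chromatin factors and clamp regulators), 60 were tested, 8 were lower (13.3%) and 4 higher (6.67%), with a median log2 fold change of 0.07. These shares are near or under those of all genes, 14.1% and 11.6%. DBF4, the activator of the CDC7 kinase that fires origins, fell (9.79 ± 0.82 CPM in irradiated cultures, against 20.9 ± 2.29 CPM in controls, adjusted p = 0.00218). The RNase H2 subunits RNASEH2B (32.5 ± 2.37 CPM in irradiated cultures, against 60.04 ± 14 CPM in controls, adjusted p = 0.00259) and RNASEH2C (180.5 ± 23.8 CPM in irradiated cultures, against 278 ± 32.6 CPM in controls, adjusted p = 0.00315), which remove RNA from DNA, fell, as did PCLAF, a PCNA-binding protein (244 ± 24.6 CPM in irradiated cultures, against 341 ± 30.3 CPM in controls, adjusted p = 0.00812). RAD9A, a subunit of the checkpoint clamp, rose (41.8 ± 10.6 CPM in irradiated cultures, against 19.6 ± 5.90 CPM in controls, adjusted p = 0.00367), and so did DONSON, which helps assemble the helicase (34.2 ± 1.89 CPM in irradiated cultures, against 20.4 ± 2.29 CPM in controls, adjusted p = 0.00642).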

How the data were processed

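RNA from 3 irradiated and 3 control HMC3 cultures was sequenced on an Oxford Nanopore device after PCR of the cDNA. The deposited counts, whole numbers per transcript and library, were made by the authors with minimap2 on GRCh38, a transcript assembly and annotation step, and Salmon. Software versions, annotation release, strand handling and collapsing of molecular identifiers: not given in the sources used here. PCR copies may therefore be counted.

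Genes were kept with summed counts of at least 10 in at least 3 libraries and at least 2 transcripts that each had 3 counts or more in any library, which kept 95.63 to 96.45% of a library. Testing used edgeR 4.0.16 in R 4.3.3 (TMM, robust glmQLFit, glmQLFTest, diffSpliceDGE), with Benjamini-Hochberg adjustment over all features. Each SE was taken as the size of the log2 fold change over the root of its F statistic. Isoform fractions are not divided by length. The tests were tried first on simulated counts with the same spread setting for every feature and, unlike these data, no trend with length. That trial is not used as support for any call. Plots used Python 3.11.15 with matplotlib 3.10.9, and the permutation test scipy 1.17.1. Alternatives were RLE factors, library totals, other filters, DESeq2 1.42.0, limma 3.58.1, length-divided fractions, an offset for length, a replicate block and leaving out single libraries.

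Coordinates, lengths and classes came from GENCODE release 29 (GRCh38). Every member was named, with values per library for called members and for the smallest adjusted p in each role. Transcripts were named if switched, if called at 2 CPM or more on average, or as main transcripts if they held at least 20% of a gene, and of the other replication genes the 6 with the smallest adjusted p. The library values of TIMELESS and DNMT1 and the values of NACA and TMEM258 were chosen after they were seen. Members and lists were chosen with earlier results of these data known.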

Additional observations from a re-analysis of the deposited data

How the results depend on the processing

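With library totals in place of TMM, 1 member gene was lower and 13 higher, and 1 other replication gene was lower and 23 higher. Over all genes 3.2% were lower and 32.8% higher on that scale. The members' median log2 fold change was 0.27, against 0.528 over all genes. Among member transcripts 6 were lower and 40 higher, and 2 isoforms were gained. The shares of all transcripts under library totals are not given here, so these transcript and isoform counts are not read as particular to the members. Of the 33 member genes with a negative value on the TMM scale, 16 had a positive one with library totals. Among them were POLD2 (0.048), which is called lower on the TMM scale, and POLE4 (0.38) and PCNA (0.42), which were called higher with library totals. With the length trend removed the median was -0.30. A limit of 1 on the absolute log2 fold change left 1 lower and 0 higher of the 47 member genes that passed the filter, beside GINS2 in the fit without the rule on transcripts. DESeq2 called 14 member transcripts lower (5.66% of all transcripts it gave an adjusted p) and 1 higher (2.03%). Fractions from length-divided counts gave 7 gained isoforms, for which the share of all transcripts is not given here. Isoforms called reduced numbered 1 with transcripts of at least 3 counts in 3 libraries, 1 with the replicate block and 9 with limma's diffSplice (0.774% of all transcripts). The cause of these changes was not tested.

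Leaving out each library in turn gave 7 to 16 lower and 1 to 3 higher member genes, with a median of -0.29 to -0.16. It gave 4 to 9 lower and 4 to 7 higher other replication genes. Over all genes 8.79 to 17.3% were lower and 6.24 to 15.6% higher. Of member transcripts 9 to 37 were lower and 2 to 17 higher. Over all transcripts 2.31% were lower and 1.81% higher without control 2, and 6.56% and 6.31% without control 3. Member isoforms gained numbered 1 to 10 and those reduced 0 to 3, against 0.58% and 0.45% of all transcripts without control 3. Each of these fits has 1 library fewer, and the highest counts of member genes, transcripts and isoforms came without control 3. RLE factors, both other filters on genes, DESeq2, the length offset and the replicate block gave 13 to 16 lower and 2 to 3 higher member genes, with GINS2, MCM6, CDT1 and CHAF1A tested too under the other filters. Over all genes, 11118 to 31768 by the filter, these settings called 1286 to 1748 lower and 968 to 1623 higher.

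Deviations from the group means correlated at -0.0008, 0.0915 and 0.0163 for the same-numbered cultures 1, 2 and 3. With 3 cultures per group these values cannot decide whether the replicate numbers pair the cultures. Over all genes, the fit with the replicate block called 1682 lower and 1549 higher, against 1567 and 1292 without it. With the replicate block 14 members were lower and 3 higher, DNMT1 being the one added, and MCM6 lost its call (adjusted p = 0.0521) in the fit without the rule on transcripts. Over single genes and isoforms, of 707 values under an alternative, 76 were no longer called, 19 became called in the same direction and 3, those of POLD2, POLE4 and PCNA above, changed sign with a call in either fit. The other 609 kept their side of the threshold. In all, 36 values changed sign, 16 with library totals and 20 under other alternatives. Depth limits MCM6, MCM10, ORC1, ORC2, RFC3 and CHAF1A, which had 10 to 94 counts per library.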
